A study of Homo sapiens with 6 samples.

Results

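Cytosolic ribosomal protein genes encode the proteins of the ribosome that translates messages from the nucleus. They were taken here as the protein-coding genes whose symbol has the form of an RPL, RPS or RPLP name, together with RPSA, which gave 85 of the 60662 genes in the count table. Of these, 53 belong to the large (60S) subunit and 32 to the small (40S) subunit, and 12 lie on chromosome 19. The rule used names alone and no measured value. It takes in tissue-restricted paralogs and leaves out ribosomal proteins with other names, such as FAU and RACK1, which are described with the other lists.

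The genes were measured in TC-71, an established Ewing sarcoma cell line, by stranded mRNA sequencing. There were 3 libraries of cells with a knockout of XG, a gene for a cell-surface glycoprotein that carries a blood group antigen, and 3 libraries of wildtype cells. Both groups were grown in the same medium and neither was treated. Whether the knockout is 1 clone or a pool, and whether replicates were grown apart, is not given in the labels. The p-values therefore reflect library-to-library spread alone, part of which may be technical.

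Each ribosome holds 1 copy of most of its proteins, and their genes are transcribed at high levels in growing cells. Their messages typically begin with a C followed by a run of pyrimidines, the 5′ terminal oligopyrimidine (TOP) motif, through which mTORC1 and LARP1 control translation. Expression of the set is therefore adjusted to a large extent after transcription, which counts of mRNA do not show.

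Total counts lay between 24934343 and 31214099 in knockout libraries and between 22557187 and 27765294 in wildtype libraries. XG itself stood at 30.0, 30.0 and 28.9 CPM (counts-per-million, scaled for library size) in knockout libraries and at 45.4, 47.1 and 44.4 CPM in wildtype libraries, so its message was lower but present in the knockout. All 10 Ewing sarcoma markers were tested, and their summed level was 2670 to 2690 CPM in knockout and 2750 to 2810 CPM in wildtype libraries, with no overlap. The sum rests largely on CCND1, which averaged 1360 CPM in knockout and 1420 CPM in wildtype libraries. Negative log2 fold changes were seen for 6 of the 10. STEAP1, GLI1, BCL11B and PRKCB had positive ones, between 0.01 and 0.03. Of the 10, CD99 was called lower (-0.12, edgeR adjusted p = 0.0302), a call that ended with correction for GC content (adjusted p = 0.142). Summed blood cell markers stayed between 0.138 and 0.522 CPM in knockout and between 0.217 and 0.23 CPM in wildtype libraries, with 3 of 7 at 0 throughout. Epithelial markers summed to 7.01 to 7.62 CPM in knockout and 5.14 to 5.72 CPM in wildtype libraries. Of these 6 markers only 2, KRT8 and KRT18, passed the filter on low counts, and KRT18 was called higher. Fibroblast markers summed to 73.1 to 82.3 CPM in knockout and 77.4 to 83.3 CPM in wildtype libraries, with overlap, and 0 of the 5 tested were called. Their part in the results was not tested. In bulk RNA, fewer cells of a kind and less RNA per cell cannot be told apart.

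The bases around the annotated start are shown for genes that the results below turn on, because the TOP motif is the feature these messages share. Each line gives 10 bases before the start and 20 from it, from RefSeq on GRCh38.p14, with the run of pyrimidines from a C at the start in capitals. RPS19 has another annotated start, with the window chr19:41860394-41860423, that lacks such a run and is not shown. The windows lie at chr19:48619159-48619188 on the minus strand for RPL18, chr19:55385922-55385951 on the plus strand for RPL28, chr19:41860245-41860274 on the plus strand for RPS19 and chr19:1438386-1438415 on the plus strand for RPS15. Those of RPLP1 and RPL22L1 lie at chr15:69452808-69452837 on the plus strand and chr3:170870176-170870205 on the minus strand.
RPL18: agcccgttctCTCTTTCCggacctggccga
RPL28: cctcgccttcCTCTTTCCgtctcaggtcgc
RPS19: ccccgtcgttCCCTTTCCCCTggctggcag
RPS15: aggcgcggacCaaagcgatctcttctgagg
RPLP1: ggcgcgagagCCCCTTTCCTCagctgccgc
RPL22L1: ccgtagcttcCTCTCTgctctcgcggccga

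A start of this form, a C followed by at least 4 pyrimidines, was present in 47 of 68 ribosomal protein genes with an entry (69.1%). It was present in 5.14% of 27305 genes of the table with an entry and in 6 of 69 mitochondrial ribosomal protein genes (8.7%). Among the members it occurred in 7 of 9 on chromosome 19 and in 40 of 59 elsewhere. RPS15 has a single C at the annotated start used here. A match describes letters at an annotated start and is not evidence of a start used in these cells.

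Ribosomal protein messages were abundant in both groups. They took 6.57%, 6.37% and 6.54% of all counts in knockout libraries and 6.53%, 6.6% and 6.53% in wildtype libraries, with means of 6.49% ± 0.106 and 6.55% ± 0.0408 (SD, n = 3 each). The groups overlapped. Large subunit genes took 3.80% ± 0.0605 in knockout and 3.83% ± 0.031 in wildtype libraries, and small subunit genes 2.7% ± 0.0466 and 2.73% ± 0.01. The ratio of large to small subunit counts was 1.403, 1.410 and 1.414 in knockout libraries and 1.399, 1.411 and 1.401 in wildtype libraries, again overlapping.

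Levels were compared between genes as CPM per kilobase of coding sequence. Levels per kilobase of annotated transcript were computed first, and coding length replaced them after they had been seen, because some annotated transcripts are many times longer than their coding part. The 83 genes that passed the filter on low counts had a median of 1540 CPM per coding kilobase, and 71 of them exceeded 500. In the large subunit RPL41, RPL37A and RPLP1 were highest, at 4900, 3650 and 3240. In the small subunit RPS20 and RPS18 were highest, at 3980 and 3680. This order depends on the length used: per kilobase of transcript the highest large subunit genes were RPLP0, RPL7A and RPL12, sharing 0 of 3 with the order by coding length, and RPL41 stood at 783. The small subunit shared 2 of 3, with RPS18, RPS2 and RPS20 highest.

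**Figure D1:**
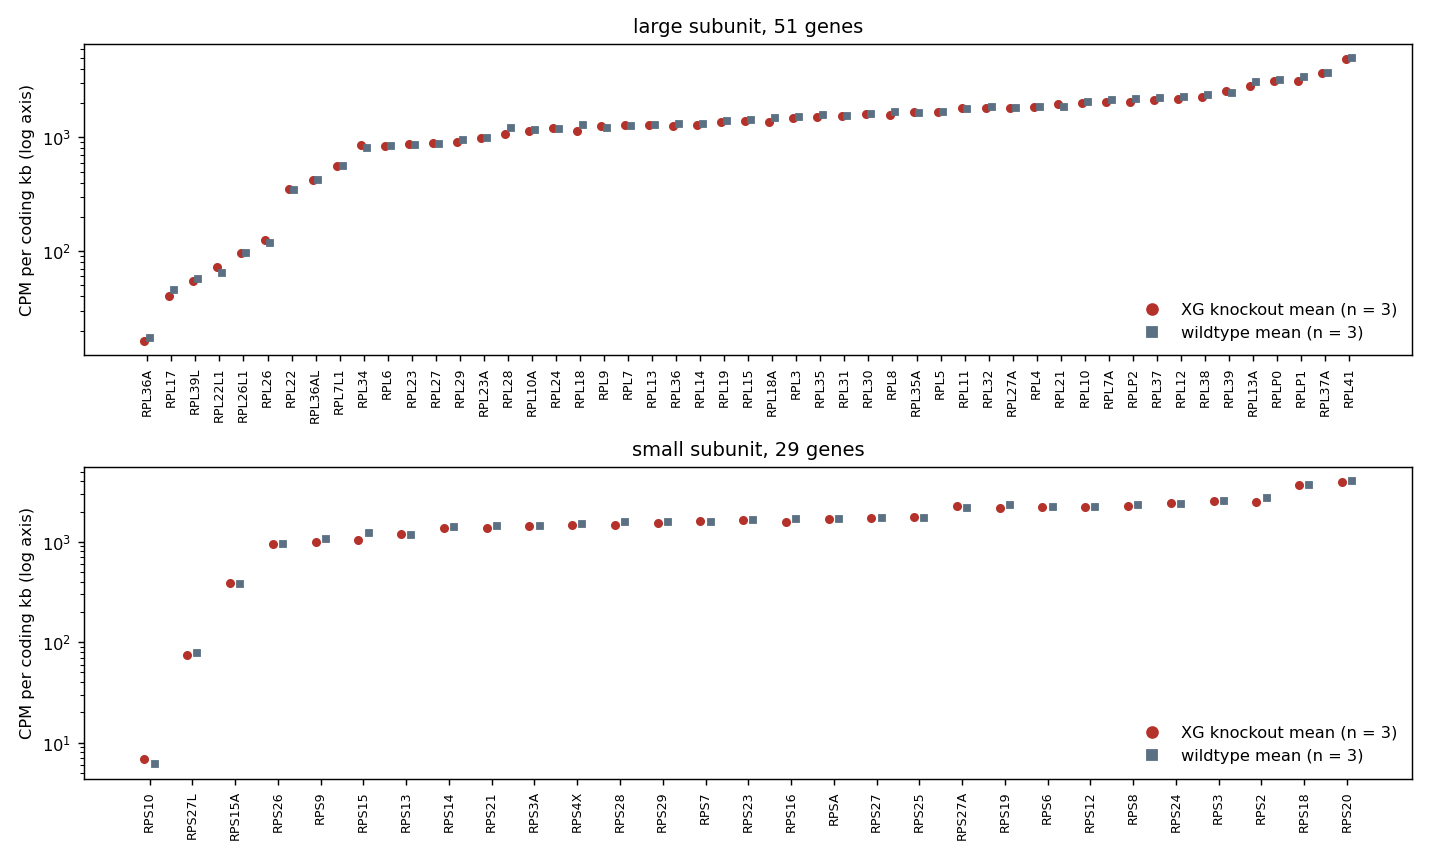
Mean level of 80 of the 83 tested ribosomal protein genes in CPM per coding kilobase on a log axis, for XG knockout (circles) and wildtype (squares), with large subunit genes above and small subunit genes below. Over all 83 genes the quartiles are 1080 and 2100, and 9 lie under 200.

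The lowest genes were near-copies, paralogs or genes that share exons with a neighbour. RPS10 stood at 6.52 CPM per coding kilobase, and 40.3% of its exonic bases also belong to the readthrough gene RPS10-NUDT3. RPL17 stood at 42.8, and 32.7% of its exonic bases are shared, mostly with RPL17-C18orf32. Fragments that fit more than 1 gene were not counted, so these levels, and that of RPL36A at 16.7, are uncertain. The count table also holds 1144 pseudogenes named after 77 of the members. They took 0.0412% to 0.0477% of counts in knockout and 0.0414% to 0.0421% in wildtype libraries. Loss of fragments that fit both a member and a pseudogene could affect levels across the set and was not measured. RPL10L, known from testis, had no count in any library. RPL3L, known from striated muscle, had 0, 2 and 0 counts in knockout and 2, 0 and 2 in wildtype libraries. Neither was tested.

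Few ribosomal protein genes differed between XG knockout and wildtype cells, and the differences were small. By edgeR's quasi-likelihood test, with Benjamini-Hochberg adjustment over 14425 genes and a threshold of 0.05, 3 of 83 tested members were lower and 0 higher. Over all genes tested, 0.915% were called lower and 1.36% in either direction. At an unadjusted p under 0.05, 16 members were lower and 4 higher, beside 9.81% of all genes lower and 6.98% higher. The median level was 710 CPM over members and 22.5 CPM over all genes tested, so these shares compare unlike levels. Of 4573 genes at 50 CPM or more, 85 were called lower, and 738 were lower and 378 higher at an unadjusted p under 0.05. Of the 75 members at that level, 3 were called lower, and 15 were lower and 3 higher at that p. The called genes all lie on chromosome 19, where 24 of 259 other genes at 50 CPM or more were also called lower. RPS15 and RPL18 are described here.

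The median log2 fold change of the members was -0.01, with 52 of 83 below 0, against a median of 0.00 over all genes tested, of which 49.1% were below 0. Large subunit genes had a median of -0.02, with 34 of 51 below 0, and small subunit genes -0.01, with 18 of 32 below 0. Groups of libraries did not overlap for 11 members that were lower and 8 that were higher in knockout libraries. Over all genes tested, 9.8% were lower and 10.7% higher without overlap, so the count of higher members is near the general share. At 50 CPM or more, 14.3% of all genes tested and 14.7% of members were lower without overlap. The 77 tested mitochondrial ribosomal protein genes, which serve a separate ribosome, had a median of -0.01 and 0 calls by edgeR, with 13 lower and 5 higher at an unadjusted p under 0.05.

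**Figure D2:**
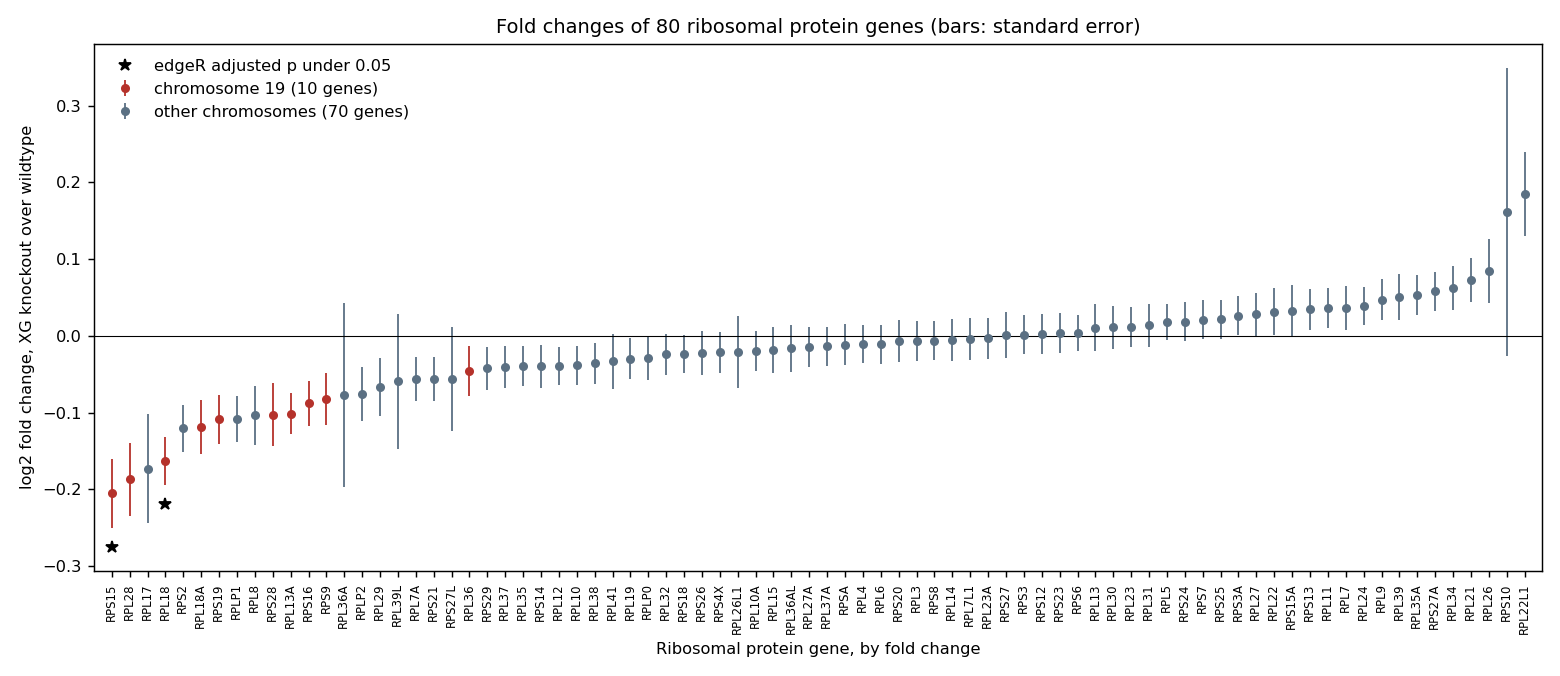
Log2 fold change of XG knockout over wildtype for 80 of the 83 tested ribosomal protein genes with their standard errors, ordered by value, with chromosome 19 genes in red and called genes starred. All 10 chromosome 19 genes drawn lie below 0, between -0.21 and -0.05.

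RPS15, a protein of the small subunit head near the decoding site, lies at chr19:1438358-1440494 (hg38). It had 437, 428 and 507 CPM in knockout libraries and 535, 528 and 520 CPM in wildtype libraries. Every knockout library was below every wildtype library, with the third knockout library closest. The difference on the log2 scale was -0.21, with an SE of 0.0444 and an edgeR adjusted p of 0.0295. The call ended in 10 of 25 alternatives, among them DESeq2 and a filter of at least 100 counts in 3 libraries.

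RPL18, a large subunit protein, lies at chr19:48615328-48619184. It had 632, 616 and 678 CPM in knockout libraries and 713, 734 and 709 CPM in wildtype libraries, with no overlap. The log2 difference was -0.16, with an SE of 0.0316 and an edgeR adjusted p of 0.0149. In both genes the third knockout library was the highest of its group. Without knockout replicate 2, or without any 1 wildtype replicate, 0 members were called. Few genes of any kind were called in those comparisons. Over all genes there were 41 calls without knockout replicate 2, and 24, 26 and 18 without wildtype replicates 1, 2 and 3.

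Genes with the next largest negative values did not pass the adjusted threshold. RPL28, a large subunit protein, had 435, 393 and 475 CPM in knockout libraries and 470, 505 and 509 CPM in wildtype libraries, with overlap (log2 fold change -0.19, edgeR adjusted p = 0.059). RPS2, a small subunit protein at the mRNA entry site on chromosome 16, averaged 2200 ± 109 CPM in knockout and 2390 ± 60 CPM in wildtype libraries (SD, n = 3 each; edgeR adjusted p = 0.0608). Up to 25.9% of its exonic bases lie in other annotated genes on the same strand. RPLP1, an acidic protein of the stalk that recruits elongation factors, had 1060, 1030 and 1120 CPM in knockout and 1140, 1180 and 1130 CPM in wildtype libraries (log2 fold change -0.11, edgeR adjusted p = 0.0799).

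**Figure D3:**
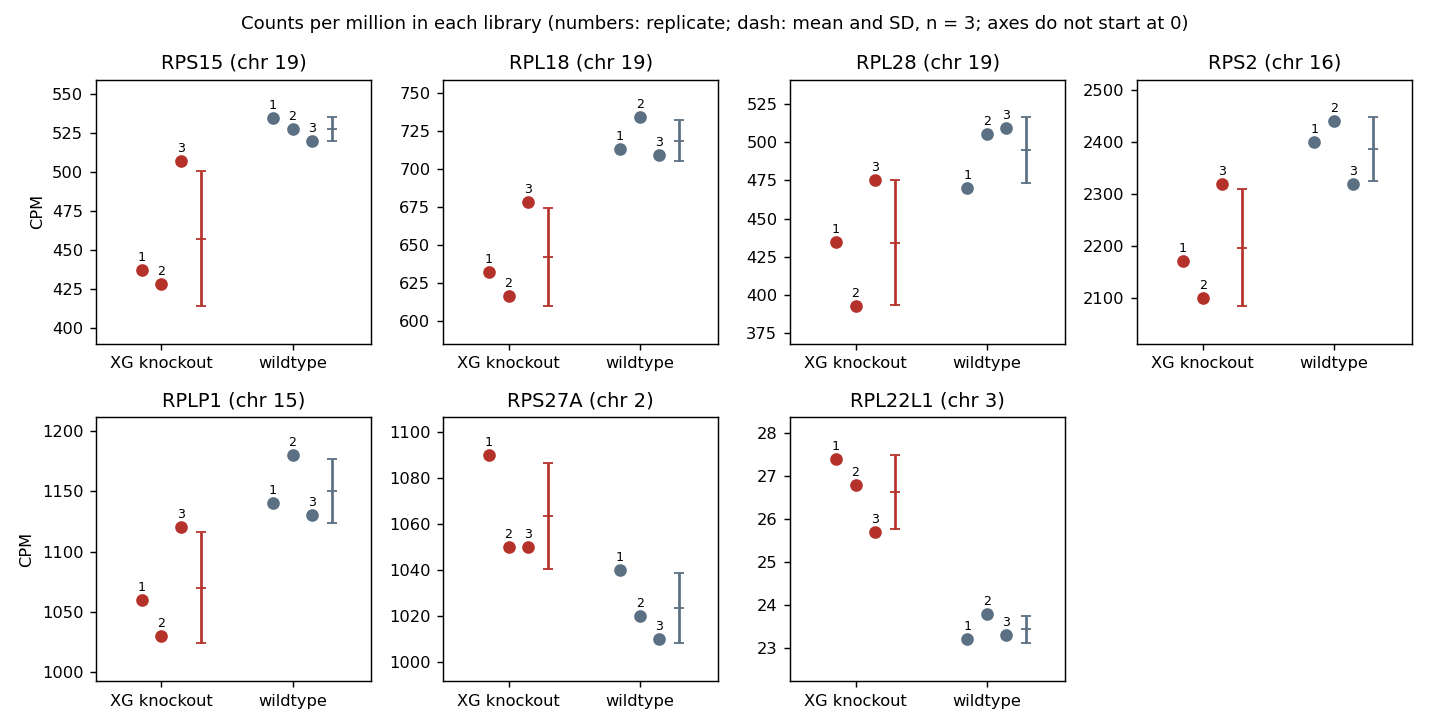
CPM of 7 ribosomal protein genes in each XG knockout (left) and wildtype (right) library, with the mean and SD of 3 libraries beside the points; axes do not start at 0. RPS15 and RPL18 do not overlap between groups, and RPL22L1 is the gene of the 7 with the largest positive log2 fold change, 0.18.

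By role, the stalk proteins RPLP0, RPLP1, RPLP2 and RPL12 all had negative values, between -0.11 and -0.03, and none was called. Over all members, 52 of 83 were negative. With GC correction RPLP2 stood at 0.0058, while RPLP0, RPLP1 and RPL12 stayed negative and RPLP1 was called lower (edgeR adjusted p = 0.0045). RPL5 and RPL11, which bind 5S rRNA and can restrain MDM2, had values of 0.02 and 0.04. The 9 proteins listed around the peptide exit tunnel had a median of 0.00, and 0 were called. RPS6, the 40S protein phosphorylated by S6 kinases, had 1700, 1660 and 1650 CPM in knockout and 1670, 1670 and 1650 CPM in wildtype libraries, with overlap. Of the 9 head and decoding proteins RPS15 alone was called.

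On the positive side no member was called. RPL22L1, a paralog of RPL22, had 27.4, 26.8 and 25.7 CPM in knockout libraries and 23.2, 23.8 and 23.3 CPM in wildtype libraries, with no overlap (log2 fold change 0.18, SE 0.0544, edgeR adjusted p = 0.0984). RPL22 had a value of 0.03 and stood at 134 ± 1.18 CPM in knockout and 132 ± 1.13 CPM in wildtype libraries (SD, n = 3 each). RPS27A, made as a fusion with ubiquitin, had 1090, 1050 and 1050 CPM in knockout and 1040, 1020 and 1010 CPM in wildtype libraries (log2 fold change 0.06, edgeR adjusted p = 0.264). RPL26, RPL21, RPL34 and RPL35A had values between 0.05 and 0.08. The other tested paralogs RPL26L1, RPL36AL, RPL39L, RPL7L1 and RPS27L had values between -0.06 and 0.00.

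On chromosome 19, all 12 members had a negative log2 fold change, with a median of -0.11, and 11 had an unadjusted p under 0.05 and 7 did not overlap between groups. The 71 members elsewhere had a median of -0.01 with 40 below 0, and 0 were called, with 5 lower and 4 higher at an unadjusted p under 0.05. The 7 small subunit genes on chromosome 19 had a median of -0.10 and the 5 large subunit genes -0.12. Chromosome 19 members took 0.878%, 0.850% and 0.923% of counts in knockout libraries and 0.937%, 0.960% and 0.951% in wildtype libraries, with no overlap. Members elsewhere took 5.69%, 5.52% and 5.62% in knockout and 5.6%, 5.64% and 5.58% in wildtype libraries, with overlap.

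Negative values were also frequent among other genes of the chromosome. The 259 other chromosome 19 genes at 50 CPM or more had a median of -0.12, with 96.9% below 0. All 969 other tested chromosome 19 genes had a median of -0.09, with 74.7% below 0. Of the 259, 24 were called lower by edgeR, 187 were lower at an unadjusted p under 0.05, and 107 (41.3%) were lower without overlap. No test compared members with the other genes of the chromosome.

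The knockout libraries differed among themselves on these genes. The median deviation of chromosome 19 members from each gene's mean over 6 libraries, in log2 CPM, was -0.08, -0.13 and 0.03 in knockout libraries and 0.03, 0.09 and 0.05 in wildtype libraries. The third knockout library was the highest knockout library for 10 of the 12 genes, and for 13 of the 71 members elsewhere. In the first and second knockout libraries all 12 lay below every wildtype library, as did 10 of the 71 others. The same held for 21.0% of all genes tested and for 89.2% of the other chromosome 19 genes at 50 CPM or more.

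**Figure D4:**
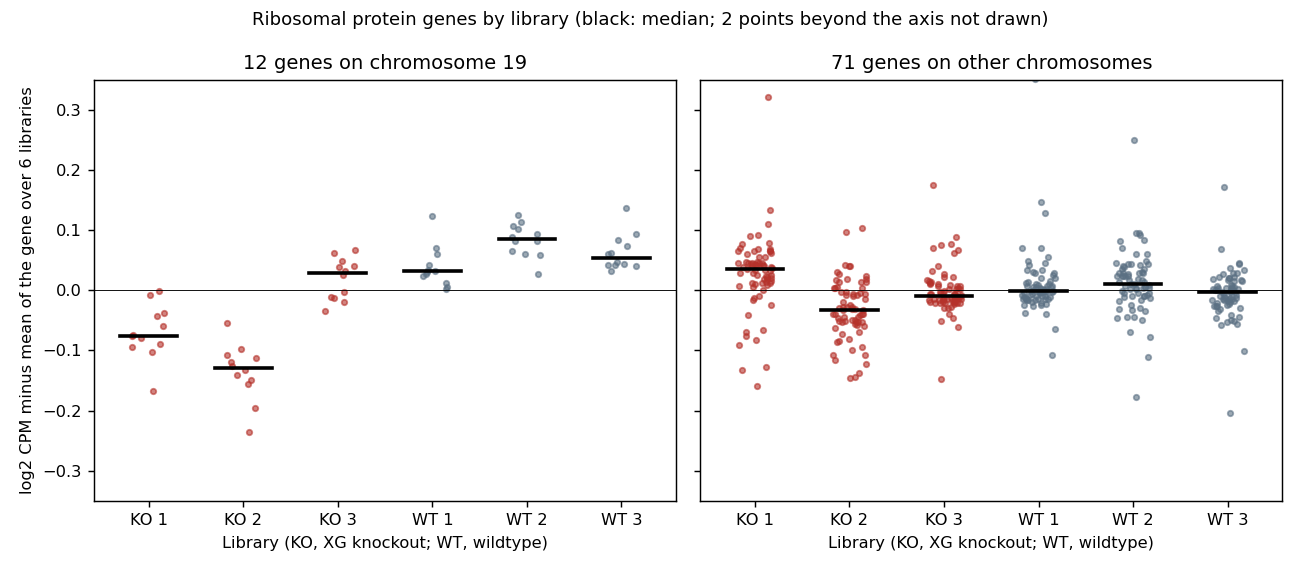
Deviation of each ribosomal protein gene from its own mean over 6 libraries, in log2 CPM, by library, for chromosome 19 genes (left panel) and the others (right panel), with medians in black. On chromosome 19 the first and second knockout libraries lie low, at medians of -0.08 and -0.13, and the third lies at 0.03.

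Counts of calls moved with that library. Without knockout replicate 3, 18 members were lower, 12 of them all those on chromosome 19, and 3 were higher, RPL22L1, RPL34 and RPL21, by edgeR. Over all genes in that comparison 9.1% were called lower and 3.58% higher. Of 4573 genes at 50 CPM or more, 775 were called lower and 319 higher, and of the 75 members at that level 17 and 2. Of the 259 other chromosome 19 genes at that level, 202 were called lower and 0 higher. The median of chromosome 19 members was then -0.16. With replicate 3 as the lone knockout library, only wildtype replicates gave an estimate of spread, which the single knockout library was assumed to share. The median of chromosome 19 members was then -0.06, with 10 of 12 below 0, and 2 members were called lower and 1, RPL13, higher, beside 0.359% of all genes lower and 0.472% higher.

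GC content moved with the same contrast. The median over all genes tested went down with GC content, to -0.10 at 60 to 65% GC and -0.13 at 65 to 70% GC, and the fitted trend at 60% GC was -0.09, -0.07 and 0.05 in knockout libraries and 0.04, 0.05 and 0.04 in wildtype libraries. Across the 83 members, which share the same libraries, log2 fold change and GC content had a Pearson r of -0.54, and of -0.36 across the 71 off chromosome 19. Across the 12 on chromosome 19 it was 0.07. Chromosome 19 members had a median GC content of 56.1%, and the others 46.6%. Off chromosome 19, the 10 members with at least 55% GC had a median of -0.05.

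With the GC trend removed from each library, 5 members were called lower by edgeR, RPL18, RPS15, RPLP1 and RPL28 among them, beside 1.26% of all genes called lower. The median of chromosome 19 members was -0.06, with 11 of 12 below 0, and RPL36 stood at 0.05. The 10 GC-rich members elsewhere had a median of 0.02. Other chromosome 19 genes at 50 CPM or more had a median of -0.05. RPL18 and RPS15 had corrected values of -0.12 and -0.13, with edgeR adjusted p of 0.00139 and 0.00174. The part of GC content, of chromosome 19 as such and of the third knockout library in these results was not tested further.

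**Figure D5:**
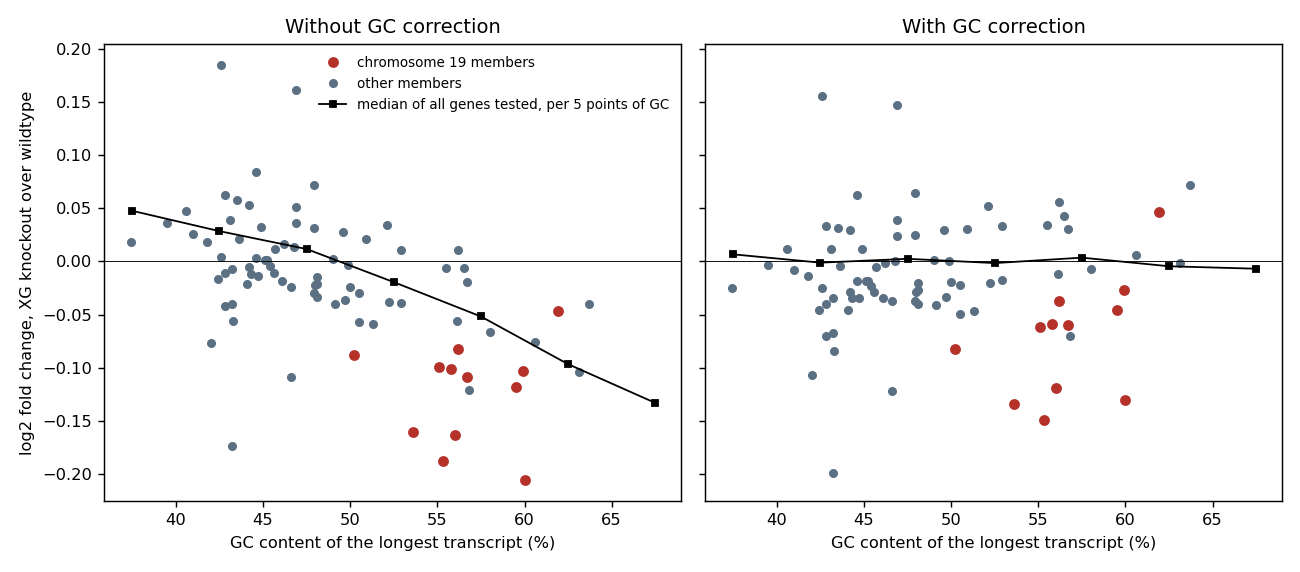
Log2 fold change of XG knockout over wildtype against GC content for 83 ribosomal protein genes, before (left) and after (right) removal of the GC trend of each library, with the median of all genes tested per 5 points of GC as a line. After correction 11 of 12 chromosome 19 genes, in red, lie below 0.

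Among tested members, the 47 with a TOP start had a median of -0.01 on the log2 scale and the 20 without it -0.02. In each, 1 gene was called lower, RPL18 with the start and RPS15 without it, beside 0.915% of all genes tested. With 1 call on each side these counts cannot compare the 47 genes with the 20.

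The authors' deposited table, which their notes attribute to DESeq2, lists 6 members with an adjusted p under 0.05, all negative. Of all genes with an adjusted p there, 2.04% had one under 0.05 and a negative sign. The direction of the authors' deposited table is not stated and was read from its signs, which matched those of the counts for 99.2% of tested genes. RPL18, RPL13A, RPS2 and RPLP1 are among the 6 members. RPS15 is not among them in the authors' deposited table.

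Calls among other genes of the ribosome pathway are given by list, beside 1.36% of all genes tested called in either direction. Of 4573 genes at 50 CPM or more, 85 were called lower and 21 higher. With GC correction, 182 of 14425 genes were called lower and 157 higher. FAU and RACK1 had values of -0.08 and -0.06. Of the 3 ribosomal proteins listed under other names 0 were called by edgeR, with 2 lower and 0 higher at an unadjusted p under 0.05, and 1 was called with GC correction. Of 21 tested translation factors with TOP messages, TPT1 alone was called, higher, at 1820 ± 41.8 CPM in knockout and 1690 ± 16.8 CPM in wildtype libraries (SD, n = 3 each; edgeR adjusted p = 0.0344). Of 63 ribosome assembly factors 2 were called lower, RRS1 and UBTF, an activator of RNA polymerase I, with values of -0.19 and -0.12 and a list median of -0.02. With GC correction UBTF was no longer called (-0.08, edgeR adjusted p = 0.0614), and the count for the list ran from 0 to 11 over 25 alternatives.

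Of 10 chaperones of ribosomal proteins 1 was called lower, GRWD1, which lies on chromosome 19 (-0.17, edgeR adjusted p = 0.0498), and with GC correction 0 were (GRWD1 -0.10, adjusted p = 0.0572). Of 13 genes that control translation of these messages 1 was called lower, RPTOR, the mTORC1 scaffold (-0.15, edgeR adjusted p = 0.0444), and with GC correction 0 were (RPTOR -0.08, adjusted p = 0.145). Of 14 snoRNA host genes 0 were called by edgeR, with 2 lower and 2 higher at an unadjusted p under 0.05. GAS5, a host with a TOP start, came closest (0.13, edgeR adjusted p = 0.0526). With GC correction 2 were called, GAS5 higher (0.10, edgeR adjusted p = 0.0261) and SNHG16 lower (-0.09, edgeR adjusted p = 0.0293).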

How the data were processed

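Fragments were counted on the exons of GENCODE genes (hg38) using featureCounts from Subread 2.0.1, and the authors deposited these raw counts, per the file headers, and reads were aligned with STAR 2.7.6a, per the submitters' processing notes. The authors' deposited table also holds log2 fold changes, mean normalized signal, a score (test statistic) and p-values. Genes were kept by filterByExpr (minimum count 10, minimum total 15) and tested with edgeR 4.0.16 in R 4.3.3 (TMM scaling, two-sided, no covariates). CPM uses TMM-adjusted library sizes. The GC correction removed a lowess trend (span 0.5) on GC content of the longest transcript of an earlier GENCODE release, known for 99.54% of tested genes. The common coefficient of variation was 3.28%. The labels give no batch. Members and lists were chosen with earlier results of these data known. Genes were named if called, among the 5 largest changes each way at 50 CPM or more, among the 3 highest or lowest per kilobase in a subunit, or by paralog pair, role or chromosome 19. That rule did not say which kilobase: levels were first computed on transcript length, then on coding length after the values had been seen, and genes named under either are included. GC correction with libraries left out was also added after seeing the data. Other alternatives were other scalings, filters, DESeq2 1.42.0, limma 3.58.1 (voom), length correction, the replicate block and leaving out each library. Some genes are not reported here by name and are not drawn in figures that label genes; they stay in all fits and counts.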

Additional observations from a re-analysis of the deposited data

How the results depend on the processing

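The count of 3 called members became 13 with no filter on low counts, 6 with limma voom, 5 with GC correction, 5 with GC correction and the replicate block, and 0 at an adjusted p of 0.01. With the replicate number as a block it was 0. Calls over all genes moved as well, from 196 to 647 with no filter, 217 with limma voom and 339 with GC correction. They came to 185 with GC correction and the replicate block, and to 37 with the block alone. Deviations of same-numbered libraries had r of -0.081, -0.237 and -0.135. With 3 libraries a group these values cannot show whether the numbers pair the libraries, and the labels do not say. Leaving out 1 library gave 0 to 21 calls among members, and 3 to 11 with GC correction (9 without knockout replicate 3). Over all genes it gave 18 to 1851 calls, and 131 to 393 with GC correction. The median log2 fold change of members stayed within -0.03 and 0.00 in 27 alternatives. That of chromosome 19 members lay between -0.16 and -0.05, at -0.1578 without knockout replicate 3 and -0.0451 with GC correction and without knockout replicate 2. RPL35, at -0.04, stood at 0.1311 and was called higher with GC correction and without knockout replicate 3. The median level of members was 1540 CPM per coding kilobase, 947 per kilobase of transcript and 205 per kilobase of exonic length, so comparisons of level between genes depend on the length chosen. The cause of these differences was not tested. With 3 libraries a group, the median SE of a member was 0.0279, beside a median absolute log2 fold change of 0.0357. A change of the median size was thus little larger than the median SE, and a limit of detection was not worked out.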
